A study of Mus musculus with 6 samples.

Results

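The transporters that carry bile acids, organic anions and cations, phospholipid and sterols into and out of the liver cell were compared between hepatic tissue of ARSB-null and control mice. The list holds 35 genes, named by symbol with no measured value in the rule but drawn up with earlier results of these data known, with 19 uptake and orphan carriers of the SLCO, SLC22 and SLC10 families and 16 genes of efflux (SLC47, SLC51 and ABC transporters, and the flippase gene Atp8b1). A probe set with exactly 1 gene symbol measured 33 of the 35, 17 for uptake and 16 for efflux, out of 19938 genes with such a probe set on the array. Slc22a3 had no listed probe set, and Slc22a28 was read only by a probe set that is shared with Slc22a29 and Slc22a30. The tested animals were homozygous ARSB-null male mice of 12 weeks (n = 3, numbered 4, 5 and 6 in the labels), from a colony the authors bred out of heterozygous arylsulfatase B-deficient mice, and the controls were male C57BL/6J mice of 12 weeks (n = 3, also numbered 4, 5 and 6). All 6 animals shared the C57BL/6J background and received no treatment, and the sources do not say that they were littermates, so colony and genotype cannot be told apart. The missing enzyme, arylsulfatase B, takes the 4-sulfate off the non-reducing end of chondroitin 4-sulfate and dermatan sulfate. The paper describes it as an enzyme of lysosomes and also of the cell membrane.

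In the liver, portal blood brings bile acids and drugs to the basolateral membrane of the hepatocyte, where carriers of the SLC10, SLCO and SLC22 families take them up. ABC transporters then pump bile acids, conjugates, phospholipid and cholesterol across the canalicular membrane into bile, and other ABC transporters and the SLC51 pair return solutes to the blood. Many of these genes are read out by the nuclear receptors FXR, PXR and CAR, and several differ between male and female mice.

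No transporter passed an adjusted p of 0.05 in the comparison of ARSB-null with control liver over all probe sets (limma, Benjamini-Hochberg; 0 of 33 higher and 0 of 33 lower, against 7 of 35556 probe sets called, or 0.0197%). At an unadjusted p under 0.05 by limma, 1 transporter was higher (Slco1a4; background 2.75% of all probe sets) and 4 were lower (Slc22a7, Slc10a2, Slc22a4 and Abcg2; background 3.19%). Of all 19938 genes by their brightest probe set, 398 were higher and 758 lower at that unadjusted threshold. The largest difference among the transporters was that of Slc22a7, the organic anion transporter OAT2, whose signal was 2.56-fold lower in ARSB-null liver. The main transporters of bile acids and bilirubin conjugates, Slc10a1, Slco1b2, Abcb11 and Abcc2, had differences between -0.03 and 0.12 on the log2 scale. Over the 33 genes the median log2 difference was 0.02, with 17 means higher and 16 lower, beside a median of 0.00 over all probe sets and of -0.02 over all genes. The 95% interval of the difference lay inside a 2-fold change in either direction for 31 of the 33, the exceptions being Slc22a7 and Slc10a2.

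**Figure D1:**
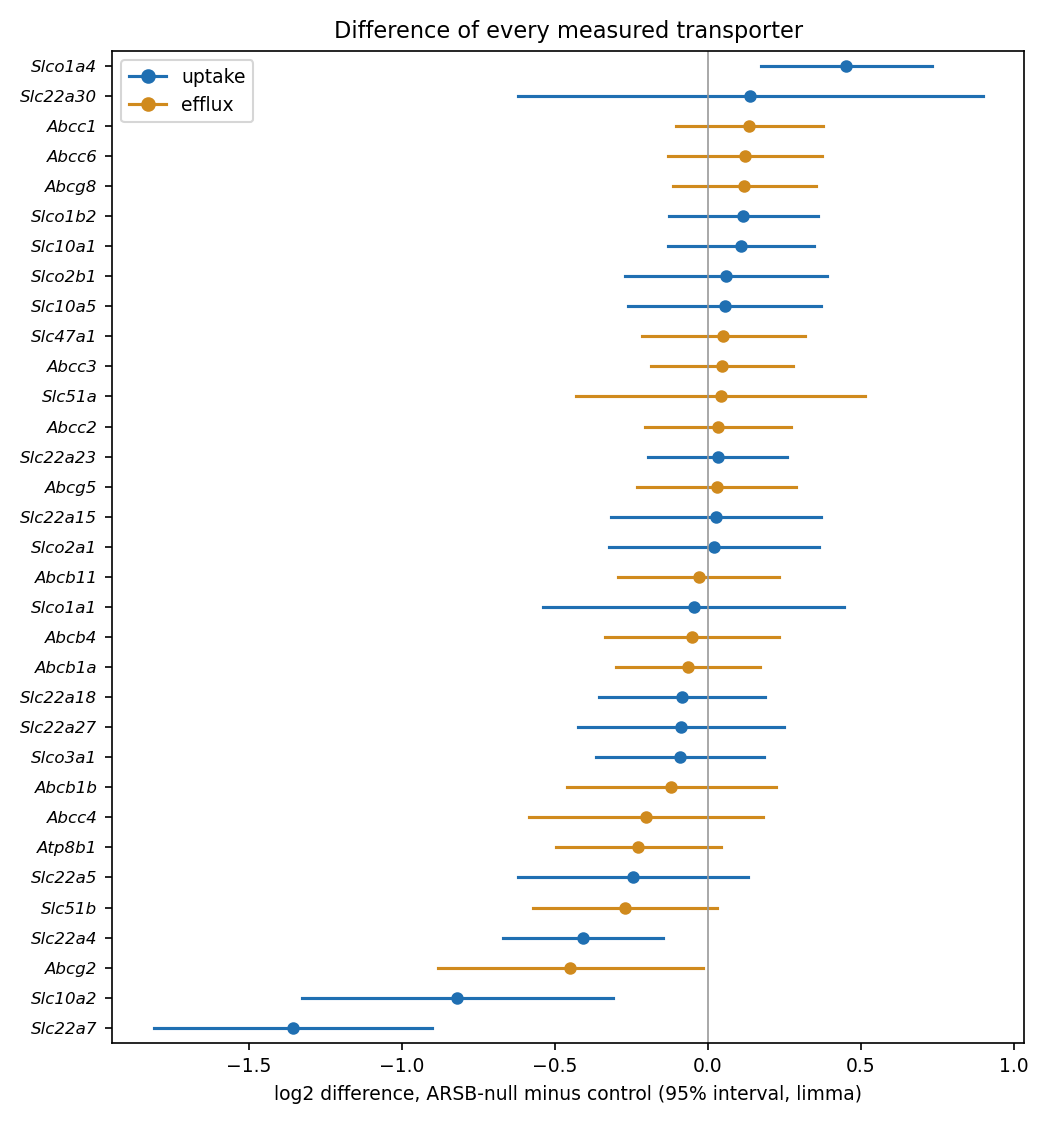
Log2 signal of ARSB-null minus control liver (horizontal axis, dots) with its 95% interval from limma (lines) for each of the 33 measured transporters (vertical axis), uptake in blue and efflux in orange. The intervals of Slco1a4, Slc22a4, Abcg2, Slc10a2 and Slc22a7 do not reach 0, and that of Slc22a7 extends from -1.81 to -0.90.

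Values are log2 signals of 1 probe set per gene, normalized by the authors, with array medians between 6.50 and 6.60. Arsb itself had signals of 7.63, 7.46 and 7.64 in ARSB-null liver, against 10.21, 10.23 and 10.21 in control liver (adjusted p = 0.000639 from limma). The 7 measured hepatocyte markers, among them Alb and Ttr, averaged 13.62 to 13.75 in ARSB-null liver, against 13.57 to 13.65 in control liver, and their median log2 difference was 0.08. In whole tissue, fewer cells of a type and less RNA per cell cannot be told apart. Both arrays numbered 4 deviated from their group means in a like way (correlation 0.396 across probe sets). The differences of Slc22a7, Slc10a2, Slco1a4, Slc22a4 and Slc51b are therefore also given without both.

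The start-site windows of 3 of the transporters with an unadjusted p under 0.05, and the window that Abcg8 shares with Abcg5, are printed here to show what lies upstream of these genes. The other 2 of those transporters are left out, since Slc22a7 was not in the promoter table used and Abcg2 has 3 start sites there. Each window holds 250 bases before and 50 after a start of transcription, from RefSeq on GRCm38.p6, in the direction of transcription. In the first 3, capitals mark matches on either strand to 5 patterns: the nuclear receptor hexamer AGGTCA, the inverted repeat of that hexamer with 1 spacer base (which contains the hexamer), the HNF1 hexamer GTTAAT, the STAT pattern TTCNNNGAA and the E-box CACGTG. In the Abcg8 window, capitals mark the bases that also lie in the Abcg5 window on the other strand.
Slco1a4, chr6:141856171-141856470, minus strand: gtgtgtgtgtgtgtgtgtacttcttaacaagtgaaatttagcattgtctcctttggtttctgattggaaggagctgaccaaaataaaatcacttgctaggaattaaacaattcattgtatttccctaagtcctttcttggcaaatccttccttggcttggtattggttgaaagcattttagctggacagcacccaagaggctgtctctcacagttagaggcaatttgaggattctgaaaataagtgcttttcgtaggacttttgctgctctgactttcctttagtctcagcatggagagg
Slc10a2, chr8:5105238-5105537, minus strand: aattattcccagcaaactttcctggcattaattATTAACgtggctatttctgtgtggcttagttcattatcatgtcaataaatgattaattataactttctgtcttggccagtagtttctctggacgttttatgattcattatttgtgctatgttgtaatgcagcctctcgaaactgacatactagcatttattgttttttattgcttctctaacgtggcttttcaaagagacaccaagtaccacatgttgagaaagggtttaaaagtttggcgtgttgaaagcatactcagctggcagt
Slc22a4, chr11:54028055-54028354, minus strand: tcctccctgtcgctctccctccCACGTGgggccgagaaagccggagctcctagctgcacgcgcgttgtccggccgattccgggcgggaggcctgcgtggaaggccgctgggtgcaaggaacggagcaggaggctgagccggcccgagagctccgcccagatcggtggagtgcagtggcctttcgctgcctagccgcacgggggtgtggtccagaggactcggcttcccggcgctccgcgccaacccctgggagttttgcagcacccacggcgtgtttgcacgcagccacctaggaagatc
Abcg8, chr17:84682871-84683170, plus strand: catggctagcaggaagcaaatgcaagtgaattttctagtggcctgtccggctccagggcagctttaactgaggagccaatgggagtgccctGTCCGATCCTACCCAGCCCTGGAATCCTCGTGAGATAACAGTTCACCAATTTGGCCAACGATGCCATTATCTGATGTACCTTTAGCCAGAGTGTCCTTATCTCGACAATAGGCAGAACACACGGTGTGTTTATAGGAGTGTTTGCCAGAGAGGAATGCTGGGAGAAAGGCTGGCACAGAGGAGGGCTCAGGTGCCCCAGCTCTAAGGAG

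The Slc10a2 window held 1 match, to the HNF1 hexamer on the minus strand of the window at 217 bases before the start, and the Slc22a4 window held 1 E-box, at 228 bases before it. The Slco1a4 window held none of these letters. Of the 35 genes, 27 had an entry, with 34 windows in all. The nuclear receptor hexamer was in 10 of the 34 (29.4%), beside 16.3% of all 32851 windows, and the STAT pattern in 7 (20.6%, beside 8.30%). The HNF1 hexamer was in 2 (5.88%, beside 7.10%), the E-box in 3 (8.82%, beside 7.15%) and the inverted repeat in none (3 of all windows). Matches of letters are given as a description of the windows only.

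Among the uptake carriers, the SLCO family (organic anion transporting polypeptides, OATPs) was measured by 6 genes. Slco1a4 encodes a multispecific carrier of bile acids and drugs that PXR ligands induce in mouse liver. Its log2 values were 10.31, 10.61 and 10.61 in ARSB-null liver, against 10.12, 10.05 and 10.01 in control liver, without overlap. ARSB-null liver averaged 10.51 ± 0.17 and control liver 10.06 ± 0.06 (SD, n = 3 each), a ratio of 1.37 with a 95% interval of 1.13 to 1.66 (0.45 ± 0.12 as a log2 difference and its standard error; limma, adjusted p = 0.568). The ARSB-null mouse was above the control of the same number by 0.19, 0.56 and 0.61 for numbers 4, 5 and 6. The smallest of these gaps belonged to the arrays numbered 4, and leaving both out gave a log2 difference of 0.58 (limma, adjusted p = 0.339).

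Slco1a1 lies beside Slco1a4 on chromosome 6 and encodes a male-predominant hepatic OATP in mice. Its signal was 11.27, 11.58 and 10.86 in ARSB-null liver, against 11.02, 11.39 and 11.44 in control liver. The groups overlapped, and the log2 difference was -0.05 with a 95% interval of -0.54 to 0.45. Slco1b2, the mouse OATP1B that takes up bilirubin and bile acids, had signals of 12.00, 12.14 and 12.02 in ARSB-null liver, against 11.83, 12.00 and 11.99 in control liver. All ARSB-null livers were at or above the controls, the lowest of them by less than 0.01, and the log2 difference was 0.12 (95% interval -0.13 to 0.36). Slco3a1, a prostaglandin carrier of many tissues, had signals of 7.36, 7.35 and 7.57 in ARSB-null liver, against 7.43, 7.65 and 7.46 in control liver. Slco2a1, the prostaglandin transporter, and Slco2b1 had log2 differences of 0.02 and 0.06 with overlapping groups.

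The SLC22 family takes up organic anions, cations and carnitine, and held the largest difference of the list. Slc22a7 encodes OAT2, a basolateral carrier of organic anions and cyclic nucleotides in hepatocytes. Its log2 values were 7.46, 7.69 and 7.11 in ARSB-null liver, against 8.75, 9.05 and 8.53 in control liver. The highest ARSB-null liver was below the lowest control by more than the range within either group. ARSB-null liver averaged 7.42 ± 0.29 and control liver 8.78 ± 0.26 (SD, n = 3 each). The log2 difference was -1.36 (standard error 0.19, unadjusted p = 0.00021 and adjusted p = 0.199 from limma). That is a signal 2.56-fold lower in ARSB-null liver, with a 95% interval of 1.87-fold to 3.51-fold. The mice of like number differed by -1.28, -1.36 and -1.42 for numbers 4, 5 and 6, so the difference was nearly the same within each number. An exact permutation test gave a two-sided p of 0.1, the smallest that 3 mice against 3 allow.

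The call of Slc22a7 depended on which probe sets were tested. With the replicate number as a block the adjusted p was 0.105, and in a test limited to the 21789 single-symbol probe sets it was 0.0198 (background 0.151% lower), both from limma. With both choices together, an alternative chosen after seeing the data, Slc22a7 (adjusted p = 0.0011) and Slc10a2 (0.0373) were past the threshold (background 0.289% lower). Without any 1 array the log2 difference of Slc22a7 was between -1.49 and -1.20 and its adjusted p between 0.301 and 0.556. Leaving out both arrays numbered 4 gave -1.39 (unadjusted p = 0.0045, adjusted p = 0.415 from limma).

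**Figure D2:**
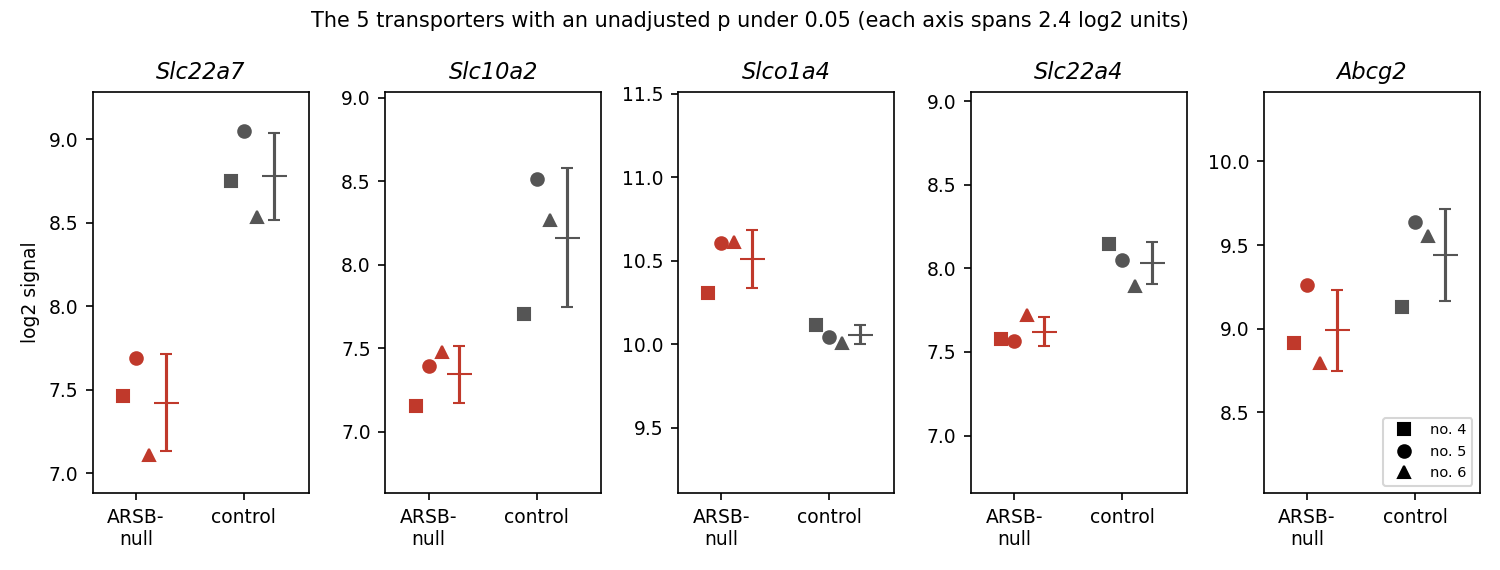
Log2 signal (vertical axes, each spanning 2.4 log2 units) of Slc22a7, Slc10a2, Slco1a4, Slc22a4 and Abcg2 in each liver, ARSB-null in red and control in grey, with squares, circles and triangles for numbers 4, 5 and 6 and bars for the mean and SD (n = 3). Slc22a7 spans 7.11 to 7.69 in ARSB-null liver, against 8.53 to 9.05 in control liver, and only Abcg2 overlaps between the groups.

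Slc22a4 and Slc22a5 lie on chromosome 11 with Slc22a21 between them, and encode OCTN1, a carrier of ergothioneine, and OCTN2, the high-affinity carnitine transporter. The log2 signal of Slc22a4 was 7.58, 7.56 and 7.72 in ARSB-null liver, against 8.15, 8.05 and 7.90 in control liver, without overlap. Its log2 difference was -0.41 (standard error 0.11, unadjusted p = 0.0077 and adjusted p = 0.599 from limma). That is a signal 1.33-fold lower in ARSB-null liver, with a 95% interval of 1.11-fold to 1.59-fold. The gap was widest between the mice numbered 4 (-0.57). Leaving out both arrays numbered 4 gave a log2 difference of -0.33 (unadjusted p = 0.0399, adjusted p = 0.573 from limma). Slc22a5 had signals of 8.003, 8.23 and 8.31 in ARSB-null liver, against 8.21, 8.34 and 8.71 in control liver. Its groups overlapped, while the ARSB-null mouse was below the control of its number in 3 of 3 cases (log2 difference -0.24, adjusted p = 0.958 from limma). Slc22a21 between them, which is not on the list, had a log2 difference of -0.06.

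The rodent organic anion carriers Slc22a27, Slc22a28 and Slc22a30 are neighbours on chromosome 19, with Slc22a29 among them, and their probe sets may share signal. Slc22a30 had signals of 10.21, 10.55 and 10.33 in ARSB-null liver, against 9.44, 10.61 and 10.63 in control liver. The control numbered 4 stood more than 1 log2 unit below the other controls, and the difference of 0.14 became -0.25 without that array (adjusted p = 0.661 from limma). The shared probe set of Slc22a28, Slc22a29 and Slc22a30 had signals of 10.86, 11.22 and 10.93 in ARSB-null liver, against 10.51, 11.03 and 11.14 in control liver, again with the lowest value in control 4. Slc22a27 had signals of 6.35, 6.63 and 6.84 in ARSB-null liver, against 6.77, 6.62 and 6.69 in control liver, and its groups overlapped. Slc22a15, Slc22a18 and Slc22a23, carriers whose substrates in liver are less well defined, had log2 differences of 0.03, -0.08 and 0.03.

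**Figure D3:**
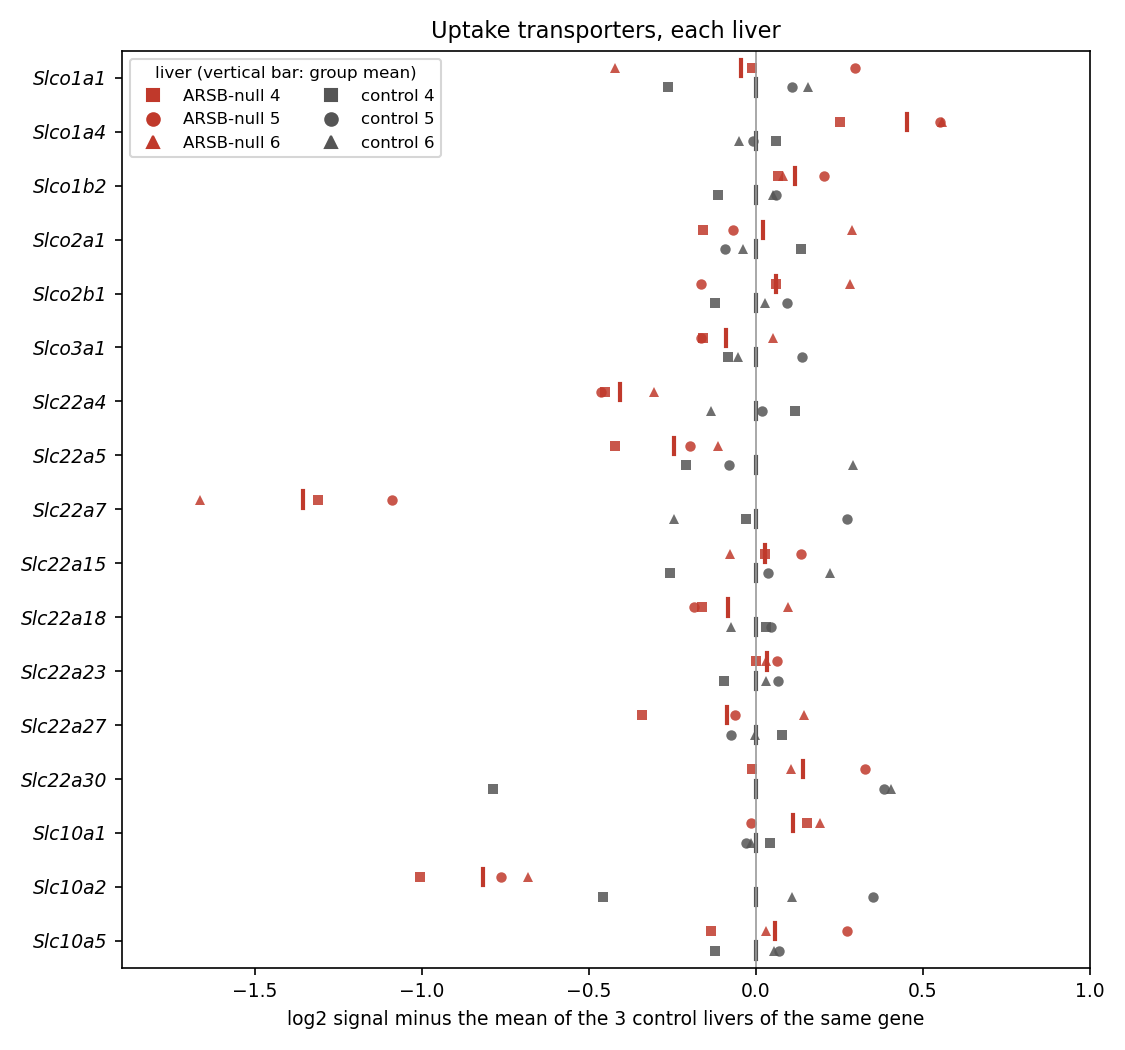
Log2 signal of each of the 17 measured uptake transporters in each liver, minus the mean of the 3 control livers of that gene (horizontal axis), ARSB-null in red above control in grey, with symbols for the replicate number and vertical bars for group means. The 3 ARSB-null livers lie left of all controls for Slc22a7, Slc10a2 and Slc22a4 and right of them for Slco1a4 and, narrowly, Slco1b2; control 4 stands apart for Slc22a30.

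The SLC10 family holds the sodium-coupled bile acid carriers. Slc10a1 encodes NTCP, the main basolateral carrier of conjugated bile acids in hepatocytes, and its signal was 12.93, 12.77 and 12.97 in ARSB-null liver, against 12.82, 12.75 and 12.77 in control liver. The groups overlapped, with a log2 difference of 0.11 (95% interval -0.13 to 0.35). Slc10a2 encodes ASBT, the apical bile acid carrier of ileum that cholangiocytes also express, and its signal was 7.16, 7.40 and 7.48 in ARSB-null liver, against 7.70, 8.51 and 8.27 in control liver. All 3 ARSB-null livers were below all controls, and control 4 was the nearest to them. ARSB-null liver averaged 7.34 ± 0.17 and control liver 8.16 ± 0.41 (SD, n = 3 each). The log2 difference was -0.82 (standard error 0.21, adjusted p = 0.574 from limma), or a signal 1.76-fold lower with a 95% interval of 1.24-fold to 2.51-fold. Leaving out both arrays numbered 4 gave -0.95 (limma, adjusted p = 0.284). The 6 measured cholangiocyte markers averaged 6.32 to 6.44 in ARSB-null liver, against 6.39 to 6.53 in control liver. Of them, Sox9 had a log2 difference of -0.35 (unadjusted p = 0.0097, adjusted p = 0.626 from limma). Krt7 had -0.12, Epcam 0.08, Krt19 0.02, Muc1 0.02 and Cftr -0.04. The mean signals of Epcam, Krt19, Muc1 and Cftr were below the median of all probe sets. Whether bile duct content has a part in the signal of Slc10a2 was not tested. Slc10a5, an orphan of the family, had a log2 difference of 0.06.

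Of the 17 uptake genes, the groups did not overlap for 2 that were higher (background 5.14% of all probe sets) and 3 that were lower (background 6.78%). Of the 16 efflux genes, the groups did not overlap for 1, Abcc1, which was higher. Of all 19938 genes by their brightest probe set, 943 were higher and 1658 lower without overlap. The median log2 difference was 0.02 for uptake and 0.00 for efflux, with ranges of -1.36 to 0.45 and -0.45 to 0.14. The ARSB-null mouse was the higher within each of the 3 numbers for Slco1a4, Slco1b2, Slc10a1, Slc51a, Abcc1, Abcc3, Abcc6 and Abcg8. It was the lower within each number for Slc22a4, Slc22a5, Slc22a7, Slc10a2, Abcc4, Abcg2 and Atp8b1. How often such agreement occurs over all probe sets was not counted.

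On the efflux side, Abcg2 had the largest difference. It encodes BCRP, a canalicular pump for sulfate conjugates, urate and many drugs, and its signal was 8.92, 9.26 and 8.79 in ARSB-null liver, against 9.13, 9.64 and 9.56 in control liver. The groups overlapped through ARSB-null 5 and control 4. The log2 difference was -0.45 (standard error 0.18, unadjusted p = 0.0439 and adjusted p = 0.828 from limma), a signal 1.37-fold lower in ARSB-null liver with a 95% interval of 1.01-fold to 1.84-fold. Without the ARSB-null array numbered 4 or 6, or the control array numbered 5 or 6, the unadjusted p was between 0.108 and 0.136. Abcg5 and Abcg8 encode the subunits of the sterol pump of the canaliculus, and lie side by side on opposite strands of chromosome 17 (GRCm38.p6). The Abcg8 start shown above is 110 bases from that of Abcg5, in windows that share the 209 bases in capitals, while the other of the 2 Abcg8 starts in the table has a window that shares 0 bases with it. Abcg5 had signals of 10.67, 10.79 and 10.65 in ARSB-null liver, against 10.82, 10.63 and 10.56 in control liver. Abcg8 had signals of 10.81, 10.80 and 10.76 in ARSB-null liver, against 10.78, 10.59 and 10.63 in control liver. Both overlapped between the groups, with log2 differences of 0.03 (95% interval -0.23 to 0.29) and 0.12 (-0.11 to 0.35).

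The ABCB genes encode P-glycoproteins and the canalicular pumps of phospholipid and bile salts. Abcb11, the bile salt export pump, had signals of 12.19, 12.31 and 12.46 in ARSB-null liver, against 12.44, 12.29 and 12.33 in control liver. Abcb4, the phosphatidylcholine floppase, had signals of 10.66, 10.93 and 11.01 in ARSB-null liver, against 10.90, 10.90 and 10.96 in control liver. For both, ARSB-null 4 was the lowest liver, the groups overlapped, and the log2 differences were -0.03 (95% interval -0.29 to 0.23) and -0.05 (-0.33 to 0.23). The drug efflux pumps Abcb1a and Abcb1b are close paralogs beside each other and Abcb4 on chromosome 5, and their probe sets may share signal. Abcb1a had signals of 6.77, 6.96 and 6.92 in ARSB-null liver, against 6.97, 6.89 and 6.98 in control liver, and Abcb1b had 5.88, 5.88 and 5.53 in ARSB-null liver, against 5.81, 6.07 and 5.77 in control liver. Neither separated the groups, and Abcb1b was below the median signal of the arrays, as was Slc51a. The flippase gene Atp8b1, whose loss causes cholestasis in humans, had signals of 9.86, 10.05 and 9.83 in ARSB-null liver, against 10.02, 10.25 and 10.16 in control liver. They overlapped, while the ARSB-null mouse was below the control of its number in 3 of 3 cases (log2 difference -0.23, adjusted p = 0.889 from limma).

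**Figure D4:**
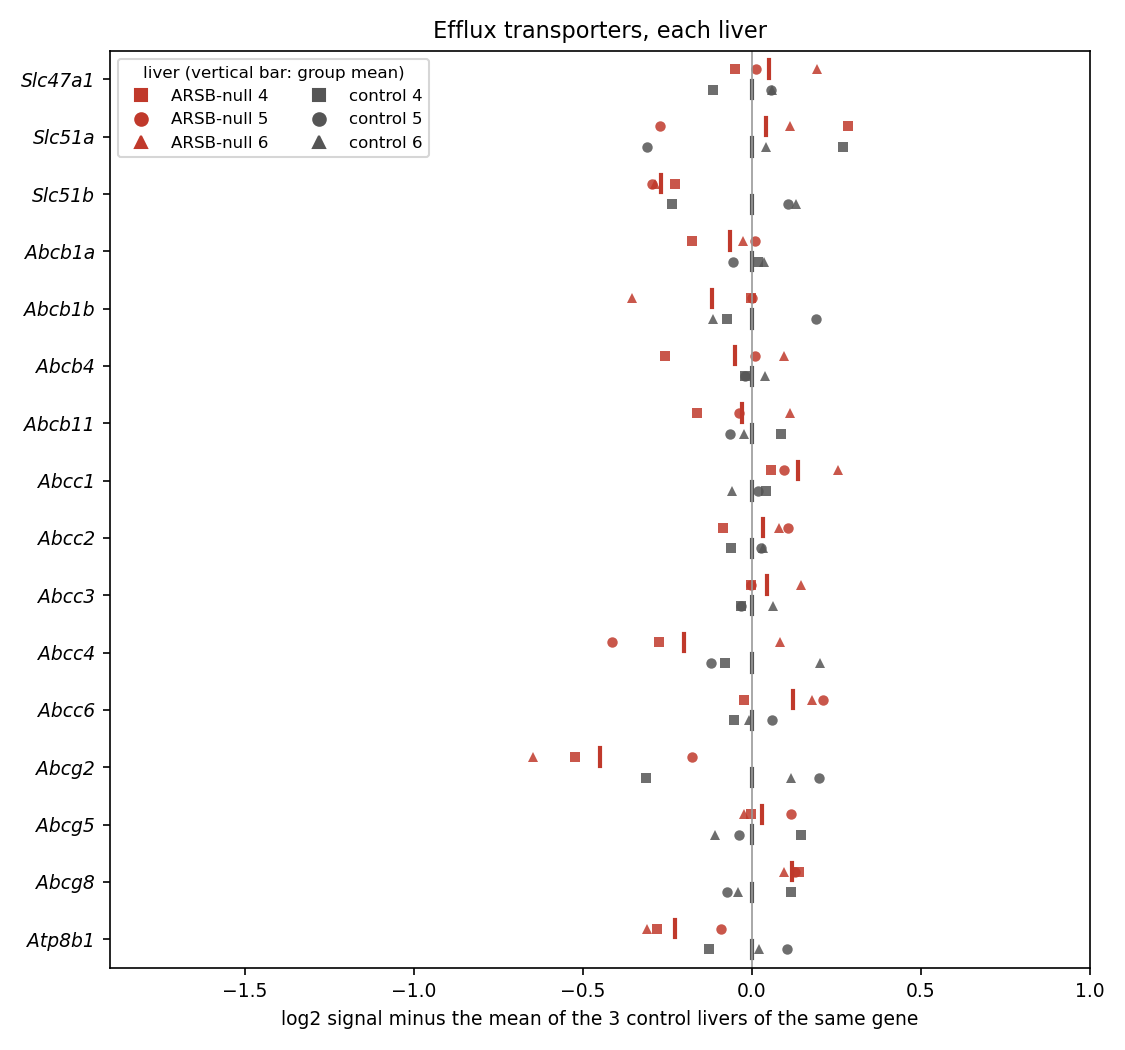
Log2 signal of each of the 16 efflux transporters in each liver, minus the mean of the 3 control livers of that gene (horizontal axis, same scale as for uptake), ARSB-null in red above control in grey, with symbols for the replicate number and vertical bars for group means. Abcg2 has the largest gap between the means (-0.45), and the groups overlap for every gene but Abcc1.

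The ABCC genes encode the multidrug resistance-associated proteins (MRPs). Abcc2, the canalicular pump of bilirubin glucuronides, had signals of 12.49, 12.68 and 12.65 in ARSB-null liver, against 12.51, 12.60 and 12.61 in control liver. The groups overlapped, with a log2 difference of 0.03 (95% interval -0.21 to 0.27). Abcc3, the basolateral pump of glucuronides that rises in cholestasis, had a log2 difference of 0.05 (95% interval -0.19 to 0.28). Abcc4, the basolateral pump of bile acids and cyclic nucleotides, had signals of 6.84, 6.69 and 7.19 in ARSB-null liver, against 7.03, 6.99 and 7.31 in control liver. The ARSB-null mouse was the lower within each of the 3 numbers, although the groups overlapped (log2 difference -0.20, adjusted p = 0.977 from limma). Abcc1, the glutathione conjugate pump that hepatocytes express weakly, had signals of 6.82, 6.85 and 7.02 in ARSB-null liver, against 6.80, 6.78 and 6.70 in control liver. These did not overlap, and the log2 difference was 0.14 (95% interval -0.10 to 0.38, adjusted p = 0.972 from limma). Abcc6, the basolateral transporter tied to ATP release and to calcification, had signals of 9.92, 10.16 and 10.12 in ARSB-null liver, against 9.89, 10.004 and 9.94 in control liver, with overlap and a log2 difference of 0.12.

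Slc51b encodes the beta subunit of the basolateral bile acid exporter OST, an FXR target. Its signal was 6.66, 6.59 and 6.60 in ARSB-null liver, against 6.65, 6.99 and 7.02 in control liver, so that control 4 lay among the ARSB-null values and the other controls above them. The log2 difference was -0.27 (unadjusted p = 0.0709, adjusted p = 0.860 from limma), and without both arrays numbered 4 it was -0.41 (unadjusted p = 0.0077, adjusted p = 0.460). Its partner Slc51a and the cation exporter Slc47a1 (MATE1) had log2 differences of 0.04 and 0.05 with overlapping groups.

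The regulators and partners of the transporters were read from lists of non-members. Of 14 measured nuclear receptors and transcription factors, none passed an adjusted p of 0.05 by limma. At an unadjusted p under 0.05 by limma, 1 was higher (background 2.75% of all probe sets). That gene was Nr1i3, which encodes CAR, with signals of 9.98, 9.97 and 10.77 in ARSB-null liver, against 9.52, 9.76 and 9.75 in control liver (log2 difference 0.56, unadjusted p = 0.0434, adjusted p = 0.827 from limma). Its groups did not overlap, and ARSB-null 6 stood well above the other livers. Nr1h4, which encodes FXR, had signals of 10.10, 10.17 and 10.11 in ARSB-null liver, against 10.29, 10.33 and 10.24 in control liver, without overlap (log2 difference -0.16, adjusted p = 0.923 from limma). Stat5b had a log2 difference of 0.18. The median over the list was 0.08.

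Of 13 genes of bile acid synthesis and conjugation, none passed the adjusted threshold by limma. At an unadjusted p under 0.05 by limma, 1 was lower (background 3.19% of all probe sets). Cyp7b1, the oxysterol hydroxylase of the alternative pathway, had signals of 10.79, 10.96 and 10.36 in ARSB-null liver, against 12.18, 11.66 and 11.60 in control liver, without overlap (log2 difference -1.11, adjusted p = 0.356 from limma). Cyp7a1, the rate-limiting enzyme of the classical pathway, had a log2 difference of -0.26 with overlap, and Cyp27a1 one of 0.11. Of 12 measured scaffold, trafficking and P4-ATPase partner genes, 0 were past an unadjusted p of 0.05 in either direction by limma. Their smallest p values belonged to Slc9a3r2, Myo5b and Rdx, with log2 differences of -0.22, -0.12 and 0.08.

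Markers of other cell types were read beside these results. The list of 8 endothelial markers averaged 9.12 to 9.25 in ARSB-null liver, against 9.11 to 9.18 in control liver, that of 8 Kupffer cell and macrophage markers 9.50 to 9.57 in ARSB-null liver, against 9.37 to 9.71 in control liver, and that of 8 stellate cell markers 8.89 to 9.04 in ARSB-null liver, against 8.85 to 8.94 in control liver. These ranges overlapped. The macrophage markers did not move together: Cd68 (log2 difference 0.53) and C1qa (0.39) had higher means in ARSB-null liver without overlap, and the other 6 had lower means with overlap, Adgre1 with -0.35 and Csf1r with -0.33. Their unadjusted p values were 0.00289, 0.00663, 0.046 and 0.0461, and the smallest adjusted p of the list was 0.448 by limma. The ranges did not overlap for 6 neutrophil markers, at 5.33 to 5.45 in ARSB-null liver, against 5.49 to 5.64 in control liver. All 6 were below the median signal of the arrays. Singly, only Ngp (log2 difference -0.50) and Retnlg (-0.27) did not overlap between the groups. Nor did the ranges overlap for the 2 measured erythroid markers, Slc4a1 and Alas2. These were 8.30 to 8.71 in ARSB-null liver, against 9.42 to 9.85 in control liver. Of 7 T, B and NK cell markers, 6 had a lower mean, with averages of 5.99 to 6.07 in ARSB-null liver, against 6.02 to 6.33 in control liver. Whether these cells have a part in the transporter values was not tested.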

How the data were processed

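Hepatic RNA of 3 ARSB-null and 3 control mice was labeled and hybridized by the authors to an Affymetrix mouse gene array, 1 array per mouse. The array generation is not settled: the paper names a later one than the platform annotation from which all gene symbols were taken here, all of whose identifiers are among the deposited rows. The deposited values are log2 signals, normalized by quantiles and summarized to 1 value per probe set by the authors; RMA and Partek are named in the submitters' processing notes, and their versions were not given in the sources used here. There are no detection calls, and the number of arrays limits the precision. Of 35556 probe sets, 21789 had 1 gene symbol in GEO's platform annotation. Each of the 33 measured transporters was read by 1 such probe set, and none shared all its values with another.

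The groups were compared with limma (version 3.58.1, R 4.3.3; lmFit and eBayes), two-sided, with Benjamini-Hochberg adjustment over all probe sets, and that fit also gave the 95% intervals. The paper's methods name an analysis of variance, which was run as an alternative. Members, lists and patterns were chosen with earlier results of these data known. The 16 transporters with the smallest p, the main bile acid, anion, phospholipid and sterol transporters and close paralogs were given on every array, and of each list of non-members up to 3 genes with the smallest p. Slc22a21, which lies between members, and Alb, Ttr, Csf1r, Krt19, Muc1 and Cftr were named besides.

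The replicate numbers of the labels were checked as pairs by the correlation of deviations from the group means, which was 0.396, 0.159 and 0.193 for numbers 4, 5 and 6. All were above 0.1, so a fit blocked by number is given where it changes a call. ARSB-null 6 correlated with control 5 at 0.220. What the numbers share is not stated, and p-values measure only the spread between these mice.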

Additional observations from a re-analysis of the deposited data

How the results depend on the processing

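Over all probe sets, 2 were higher and 5 lower, and these counts moved with most settings. They were 1 and 3 with the replicate number as a block, and 27 and 33 among probe sets with 1 gene symbol. Both choices together, chosen after seeing the data, gave 43 and 63. They were 14 and 14 with array weights, 1 and 1 with the one-way analysis of variance, and 1 and 0 without both arrays numbered 4. The count of higher ones was 5 among the brighter part of the probe sets and 1 with array medians centred. Without each array in turn there was 1 higher and between 3 and 6 lower. For the transporters, 0 uptake genes were called lower, 1 among probe sets with 1 gene symbol (Slc22a7), 2 with the replicate block as well (Slc22a7 and Slc10a2) and 3 at an unadjusted p under 0.05, where 1 uptake gene was higher and 1 efflux gene lower. With the replicate block alone no transporter was called (0 in each direction). Leaving out each array in turn gave 0 called transporters throughout, of either kind.

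Of 526 transporter values under the alternatives, 523 stayed on their side of the threshold, 3 gained a call and 0 lost one. The sign differed from that of the unaltered fit in 40, all for transporters without a call. Centring on array medians lowered each log2 difference by 0.03, and 14 rather than 17 of the 33 means were then higher; without 1 array that number was between 12 and 19. The mean over all probe sets of a gene gave the same values as the brightest, since each transporter had 1. The causes of the moved counts were not tested. Without detection calls, signal over background is unknown, and 2 transporters (Slc51a and Abcb1b) were left out when only the brighter part of the probe sets was tested.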

Other observations

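Of 26 measured genes of the SLCO, SLC22, SLC10 and SLC47 families outside the list, none passed an adjusted p of 0.05 by limma. At an unadjusted p under 0.05 by limma, 1 was higher (background 2.75% of all probe sets). That was Slc10a6, a carrier of sulfated steroids, with log2 signals of 6.16, 6.05 and 5.87 in ARSB-null liver, against 5.65, 5.76 and 5.63 in control liver, without overlap (log2 difference 0.35, adjusted p = 0.713 from limma). All of these Slc10a6 signals were below the median signal of the arrays. Slc22a26, a family member on chromosome 19, spread widely among ARSB-null livers, with signals of 6.27, 6.90 and 7.64, against 6.13, 6.17 and 6.27 in the controls (log2 difference 0.74, adjusted p = 0.841 from limma). Slc22a14 had a log2 difference of -0.19.

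Of 28 measured ABC genes outside the list, 0 were past an unadjusted p of 0.05 in either direction by limma. Abca1, the exporter of cholesterol to apolipoprotein A-I, had signals of 10.67, 10.89 and 10.82 in ARSB-null liver, against 10.97, 11.12 and 11.01 in control liver, without overlap (log2 difference -0.24, adjusted p = 0.843 from limma). Abca2 had a log2 difference of -0.23, also without overlap. Abcd2, a peroxisomal carrier of fatty acyl-CoA, had signals of 9.57, 10.26 and 10.18 in ARSB-null liver, against 10.01, 9.16 and 8.998 in control liver, and control 4 lay among the ARSB-null values (log2 difference 0.62, adjusted p = 0.884 from limma).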
